A study of Mus musculus with 2 samples.

Results

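The cells described here are microglia of the mouse retina with many transcripts of Fos, Egr1 and Ier2, 555 of the 10824 cell barcodes of a pair of single-cell RNA-seq libraries. A barcode was gated as a microglial cell when it had at least 300 genes, at most 10% mitochondrial unique molecular identifiers (UMIs, counts of captured transcripts), at least 20 UMIs per 10000 of P2ry12, Tmem119, Siglech, Gpr34 and P2ry13 together, and under 100 of Ccl3, Ccl4 and Tnf together. Within each library the 10% of gated cells with the highest sum of Fos, Egr1 and Ier2 per 10000 UMIs were taken, and those in the top 5% of the library's gated cells for Dnajb1, Hspa1a, Hspa1b and Hsph1 together were left out. The cells, chosen by these measured values, are called Fos-high cells, 314 in the LD library and 241 in the ctrl library. They were set against the lowest 50% for the same sum, called Fos-low cells, 2178 in LD and 1584 in ctrl.

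The series holds 2 libraries, each 1 pool of retinas from 5 to 8 male CB6F1 Cx3cr1-YFP mice, aged 8 months. The LD mice (light damage) were dark-adapted overnight, had their pupils dilated, received 4 h of 10 klux LED light and then recovered for 5 days. The ctrl mice carried the same reporter and had no light damage. Retinas were digested with enzymes to single cells at a warm temperature, and live YFP+ cells were sorted and run on the 10x 3′ platform, so any cell that expresses the Cx3cr1 reporter could enter. Because each group is a lone library, nothing below carries a p-value, and the group and the library cannot be told apart. The intervals given are exact 95% intervals for a ratio of counts, or for a share of cells where a percentage is given. They cover counting error only.

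Fos, Egr1 and Ier2 are immediate-early genes, transcribed from factors already present in the cell within minutes of a stimulus. Fos and Jun proteins pair to form AP-1, Egr1 is a zinc-finger activator, and the same wave includes its own brakes, among them Dusp1, which dephosphorylates MAP kinases, Nfkbia, which holds NF-kB in the cytoplasm, and Zfp36, which destabilises AU-rich mRNAs. In microglia the program is known after signals in the tissue and also after enzymatic dissociation at warm temperature, and no value here separates these.

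The libraries held 6821 barcodes and 58187149 UMIs in LD, and 4003 barcodes and 20056338 UMIs in ctrl. Of these, 6799 and 3948 passed the filter on genes and mitochondrial UMIs, 4655 and 3503 also passed the microglial markers, and 300 in LD and 335 in ctrl of those were left out at the chemokine limit, which gave 4355 and 3168 gated cells. The libraries shared 47 barcodes, of which 3 in LD and 2 in ctrl were in Fos-high cells. Doublets were not removed, and removing the barcodes with the highest doublet scores is among the alternatives.

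The score is a continuum, so the Fos-high cells are a range and not a separate population. The limit lay at 41.5 UMIs per 10000 in LD and 42.3 in ctrl; the cell just inside and the cell just outside had 41.54 and 41.49 in LD, and 42.33 and 42.24 in ctrl. Within 10% of the limit lay 127 gated cells in LD, of which 48 were Fos-high, and 109 in ctrl, of which 45 were Fos-high. The median score of Fos-high cells was 57.5 in LD and 57.1 in ctrl, and that of Fos-low cells was 1.63 in LD and 1.97 in ctrl. The highest scores among all gated cells were 284 in LD and 233 in ctrl, while 671 LD cells (15.4%) and 544 ctrl cells (17.2%) had none of the 3 transcripts. Under the ctrl limit, 9.76% of gated LD cells would have entered the top class (exact 95% interval 8.89 to 10.7), and under the LD limit 10.3% of gated ctrl cells (9.28 to 11.4). Each limit was set at 10% of its own library's gated cells, so these shares say only that the limits were close. Their intervals count cells, which are not replicates, and leave out the error of the borrowed limit. The 99th percentile of the score was 104 in LD and 139 in ctrl.

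**Figure D1:**
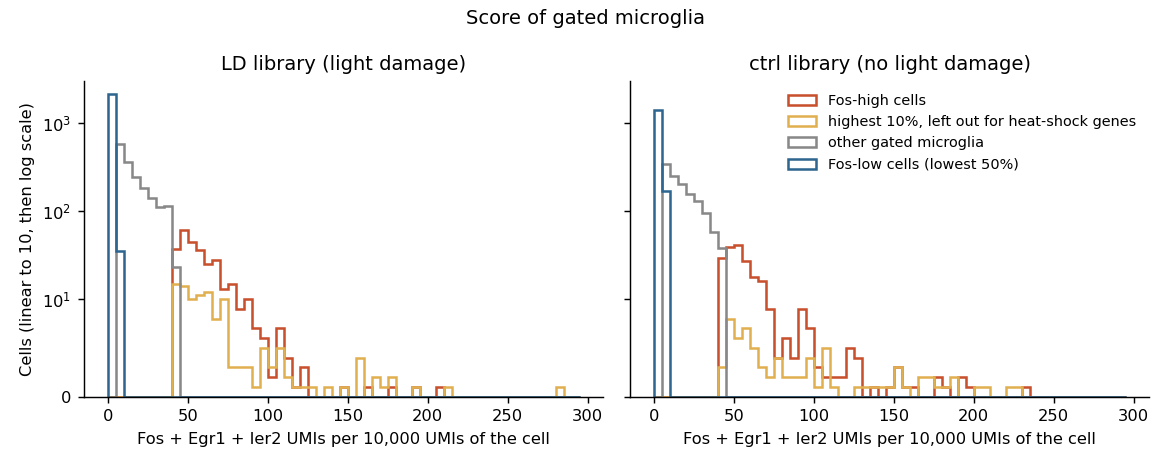
Number of gated microglia (vertical axis, linear up to 10 and logarithmic above) by the summed Fos, Egr1 and Ier2 UMIs per 10000 (horizontal axis), LD left and ctrl right, with outlines for Fos-high cells, the heat-shock-high cells left out, Fos-low cells and the cells between. The distributions run without a gap through the limits at 41.5 and 42.3.

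Leaving out heat-shock-high cells removed 122 of the 436 highest-scoring cells in LD (28.0%) and 76 of 317 in ctrl (24.0%). Conversely, 56.0% of the 218 heat-shock-high LD cells and 47.8% of the 159 heat-shock-high ctrl cells lay in the top 10% for the score. The cells left out were the more extreme ones: their median score was 64.3 in LD and 80.5 in ctrl, and Jun reached 11691 CPM (the gene's UMIs per 1000000 UMIs summed over the cells of a set) in LD and 13820 CPM in ctrl. Of the cells left out earlier at the chemokine limit, 31.7% of 300 in LD and 29.0% of 335 in ctrl had scores above the limit for Fos-high cells. Both removals therefore took cells rich in immediate-early transcripts, and the 555 cells are those that remained.

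The transcripts that chose the cells are given as a description. Fos, which encodes the leucine-zipper partner of Jun, stood at 2963 CPM in Fos-high and 55.3 CPM in Fos-low cells of LD, and at 3392 and 60.7 CPM in those of ctrl. Egr1 stood at 1702 and 73.6 CPM in LD, and at 1785 and 93.5 CPM in ctrl. Ier2, a small nuclear protein of the same early wave, stood at 1549 and 52.8 CPM in LD, and at 1492 and 68.7 CPM in ctrl. Fos gave 47.7% of the score UMIs of Fos-high cells in LD and 50.9% in ctrl. It was the most abundant of the 3 in 198 of 314 cells in LD, ahead of Egr1 in 60 and Ier2 in 47, and in 151 of 241 cells in ctrl, ahead of Egr1 in 44 and Ier2 in 31.

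P2ry12, the purinergic receptor that guides microglial processes and a gene of the gate, so that its presence was fixed by the rule, stood at 1353 CPM in Fos-high and 1423 CPM in Fos-low cells of LD, and at 2278 and 2529 CPM in ctrl. Cx3cr1, the fractalkine receptor whose locus drives the reporter, was not in the rule and stood at 900 and 961 CPM in LD (ratio 0.936), and at 925 and 983 CPM in ctrl (ratio 0.940). The median count per cell of the marker lists of monocytes, perivascular macrophages, bipolar cells, endothelium, neutrophils, T and NK cells, B cells and dendritic cells was 0 in all 4 sets, and all 6 dendritic cell markers were at 0 in the Fos-high cells of both libraries. The 6 Muller glia markers had medians of 6.89 per 10000 UMIs in Fos-high and 5.78 in Fos-low cells of LD, and of 9.0009 and 7.19 in ctrl, and sums of 840 and 615 CPM in LD and 1104 and 778 CPM in ctrl. Glul, the glutamine synthetase gene, gave most of these sums, at 802 and 572 CPM in LD and 1063 and 714 CPM in ctrl, while Dkk3 was at 0 in the Fos-high cells of both libraries; the part of Muller glia RNA in the results was not tested. Summed monocyte markers stood at 51.7 CPM in Fos-high and 43.1 CPM in Fos-low cells of LD, and at 10.999 and 24.3 CPM in ctrl. Summed rod transcripts stood at 108 and 121 CPM in LD, and at 579 and 611 CPM in ctrl, so they separated the libraries and not the Fos sets.

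Fos-high cells were somewhat shallower than Fos-low cells. Their median UMI count was 6144 against 7232 in Fos-low cells of LD, and 4324 against 5073 in those of ctrl. Their median mitochondrial share was 2.32% against 2.72% in LD, and 1.44% against 1.61% in ctrl. Ribosomal protein transcripts had a median of 1858 per 10000 UMIs against 2158 in LD, and 1253 against 1614 in ctrl. The heat-shock genes of the rule had a median of 161 per 10000 UMIs against 28.2 in LD, and 250 against 59.2 in ctrl, although the highest cells had been left out. The chemokine genes of the rule had a median of 14.3 per 10000 against 3.19 in LD, and 20.6 against 8.62 in ctrl. Ratios against Fos-low cells matched on the heat-shock or the chemokine genes are given with the results.

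Over all genes, Fos-high and Fos-low cells were alike except for a minority of transcripts. A gene was measured when it averaged at least 20 CPM over the 2 sets, and it was called when the ratio of CPM passed 1.5-fold, a fold limit with no test. In LD 297 of 4880 measured genes were over 1.5-fold higher in Fos-high cells (6.09%) and 67 were over 1.5-fold lower (1.37%), with a median log2 ratio of -0.06 over all measured genes. In ctrl 548 of 4935 were higher (11.1%) and 191 lower (3.87%), with a median of -0.03. Of the 4530 genes measured in both, 232 were higher in both, which is 84.4% of the 275 higher in LD and 52.0% of the 446 higher in ctrl. Lower in both were 8 genes, 13.1% of the 61 lower in LD and 4.37% of the 183 lower in ctrl, and 2 genes went opposite ways. The 15 genes of the rule were left out of these counts. Beside them, 10 genes in LD and 4 in ctrl were over 10-fold higher. The minimum let in genes that only the Fos-high set carries: 82 of the higher genes in LD and 176 in ctrl were below 20 CPM in Fos-low cells and had to differ.

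**Figure D2:**
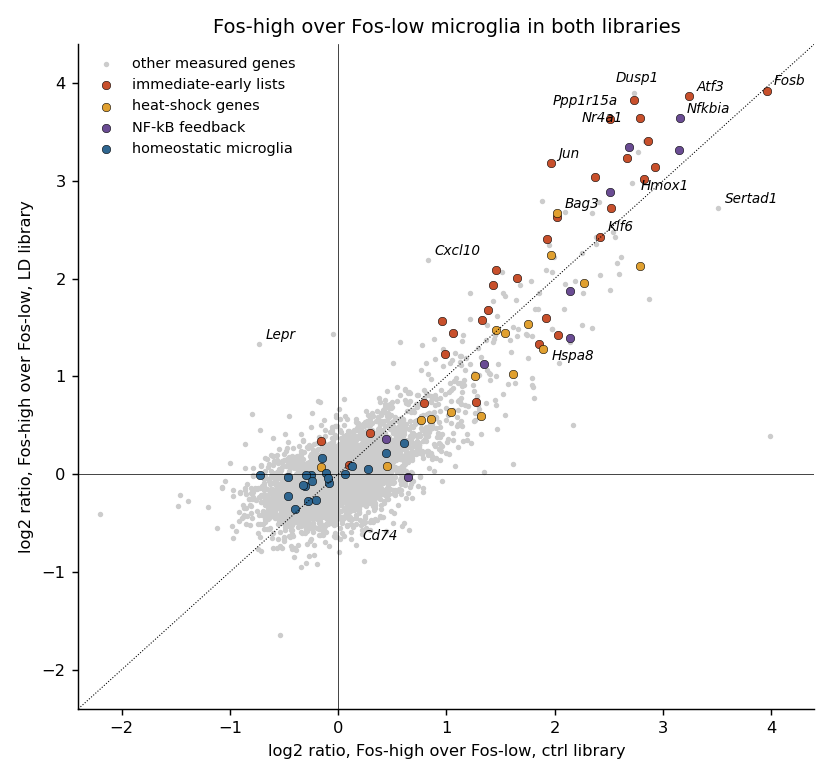
Log2 ratio of CPM, Fos-high over Fos-low, for each gene measured in both libraries, LD on the vertical and ctrl on the horizontal axis, with immediate-early, heat-shock, NF-kB and homeostatic microglial genes coloured. Immediate-early and NF-kB genes lie in the upper right, while homeostatic genes lie around 0.

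Of the 48 immediate-early genes listed beside the score genes, 31 were measured in LD and 28 of them were over 1.5-fold higher in Fos-high cells, none lower, with a median log2 ratio of 2.09. In ctrl 33 were measured, 30 were higher, none lower, and the median was 1.93. Of these, 8 in each library passed the minimum only through the Fos-high set. Since the cells were chosen for 3 genes of the same wave in the same cells, these counts describe the company of the score genes and test nothing.

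The AP-1 factors were higher without exception among those measured, 8 of 8 members in each library, with median log2 ratios of 2.791 in LD and 1.998 in ctrl; 4 of the 8 in each passed only through the Fos-high set. Fosb, a relative of Fos that also pairs with Jun, stood at 155 CPM in Fos-high and 10.2 CPM in Fos-low cells of LD, a ratio of 15.1 (12.6 to 18.3), and at 84.3 and 5.43 CPM in ctrl, a ratio of 15.5 (10.7 to 22.8). Jun, the central AP-1 subunit, stood at 5532 and 611 CPM in LD, a ratio of 9.06 (8.82 to 9.30), and at 8162 and 2084 CPM in ctrl, a ratio of 3.92 (3.82 to 4.02). For Fosb the libraries gave like ratios, while for Jun the ctrl ratio was lower and its Fos-low level higher. Atf3, a stress-induced partner of Jun, stood at 1080 and 74.1 CPM in LD, a ratio of 14.6 (13.6 to 15.6), and at 1667 and 176 CPM in ctrl, a ratio of 9.46 (8.82 to 10.1). Junb, which can replace Jun in AP-1, was 5.29-fold higher in LD and 3.80-fold higher in ctrl. Jund, a more constant Jun relative, was 4.03-fold and 3.13-fold higher. The small Maf protein Maff was 10.6-fold higher in LD and 7.28-fold in ctrl, its relative Mafk 3.03-fold and 3.78-fold, and Batf, which pairs with Jun family members in immune cells, 2.69-fold and 4.07-fold.

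Of the 6 Egr and Nr4a factors beside Egr1, Egr2 and Nr4a1 passed the minimum in both libraries, and Egr3, Egr4, Nr4a2 and Nr4a3 stayed below it in both. Nr4a1, an orphan nuclear receptor induced in activated myeloid cells, stood at 290 CPM in Fos-high and 23.3 CPM in Fos-low cells of LD, a ratio of 12.5 (10.96 to 14.2), and at 222 and 32.2 CPM in ctrl, a ratio of 6.89 (5.76 to 8.24). Egr2, a close relative of Egr1, stood at 65.0 and 5.25 CPM in LD, a ratio of 12.4 (9.40 to 16.3), and at 73.3 and 12.8 CPM in ctrl, a ratio of 5.71 (4.22 to 7.72). Both had the larger ratio in LD.

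Of 7 measured Kruppel-like factors, 5 were higher in each library. Klf2, a zinc-finger factor known for restraining inflammatory genes in myeloid cells, stood at 199 CPM in Fos-high and 21.2 CPM in Fos-low cells of LD, and at 483 and 75.8 CPM in ctrl, ratios of 9.38 and 6.38. Its relative Klf4 was 6.60-fold higher in LD and 5.74-fold in ctrl. Klf6, a broadly expressed early-response member, was 5.39-fold and 5.36-fold higher, and Klf10, induced by TGF-beta, 2.96-fold and 1.94-fold. Klf3 and Klf13 were not part of this pattern: Klf3 had a ratio of 1.07 in both libraries, and Klf13 had 1.27 in LD and 0.898 in ctrl.

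Other early-response genes followed, with 13 of 14 measured members higher in LD and 15 of 16 in ctrl, at median log2 ratios of 1.81 and 1.47. Ppp1r15a, which brings a phosphatase to the translation factor eIF2 and so restores translation after stress, stood at 445 CPM in Fos-high and 31.4 CPM in Fos-low cells of LD, a ratio of 14.2 (12.7 to 15.8), and at 412 and 61.9 CPM in ctrl, a ratio of 6.64 (5.84 to 7.56). Gadd45b, a stress-induced activator of p38 signalling, was 8.82-fold higher in LD and 7.63-fold in ctrl. Btg2, an antiproliferative partner of the mRNA deadenylase, was 8.24-fold and 5.17-fold higher. Ier3, an early gene that modulates survival, was 6.19-fold and 4.05-fold higher, and Ier5, a coactivator of the heat-shock factor, was 4.24-fold and 2.76-fold. Csrnp1, a nuclear protein of the early wave, was 8.09-fold and 7.10-fold higher, but its gene overlaps Cx3cr1 on the same strand, so its counts are uncertain. Rgs2, a regulator of G-protein signalling on the same list, was within the limit at 1.34 in LD and 1.23 in ctrl.

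**Figure D3:**
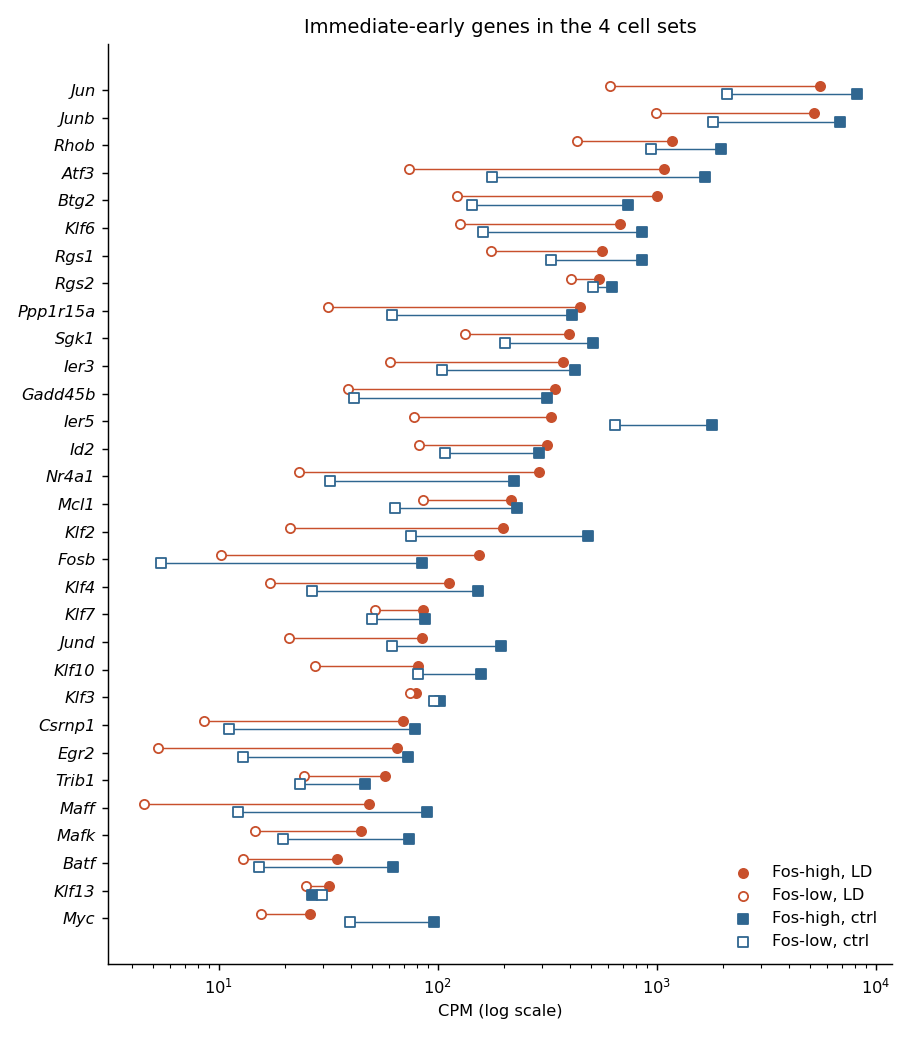
CPM on a logarithmic axis of the immediate-early genes measured in both libraries, Fos-high cells filled and Fos-low cells open, LD as circles and ctrl as squares. The filled symbols stand to the right of the open ones for nearly every gene, and for Jun the open ctrl square (2084 CPM) stands well above the open LD circle (611 CPM).

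Among the feedback genes of the response, Dusp1 was over 1.5-fold higher in both libraries. It stood at 716 CPM in Fos-high and 47.9 CPM in Fos-low cells of LD, a ratio of 14.96 (13.7 to 16.3), and at 722 and 109 CPM in ctrl, a ratio of 6.64 (6.03 to 7.32). Of the 4 measured genes of MAP kinase feedback, 2 were higher in each library, Dusp1 and Errfi1, an inhibitor of the EGF receptor, which was 3.62-fold and 4.78-fold higher; Dusp6, a phosphatase of ERK, was within the limit at 1.36 and 1.11, and Spred1, an inhibitor of Ras signalling, at 0.711 and 1.22. Of the genes of the kinases and serum response factors upstream, 0 of 11 were higher in LD and 2 of 10 in ctrl. Of 7 measured genes of mRNA decay, 6 were higher in each library. Among them Zfp36 stood at 682 and 106 CPM in LD, and at 633 and 148 CPM in ctrl, ratios of 6.44 and 4.28, and Zc3h12a, an RNase that cuts cytokine mRNAs, was 4.13-fold and 6.05-fold higher.

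NF-kB feedback genes were of the same order. Nfkbia stood at 2237 CPM in Fos-high and 180 CPM in Fos-low cells of LD, a ratio of 12.5 (11.9 to 13.04), and at 1937 and 217 CPM in ctrl, a ratio of 8.91 (8.36 to 9.50). Tnfaip3, the ubiquitin-editing enzyme A20, was 10.2-fold higher in LD and 6.45-fold in ctrl, and Nfkbiz, a nuclear cofactor of NF-kB, 9.99-fold and 8.86-fold. In all, 7 of 9 measured members were higher in LD and 8 of 9 in ctrl. Nfkb1, a subunit of NF-kB itself, was within the limit at 1.28 and 1.36. Among 9 measured cytokine genes outside the rule, 5 were higher in LD and 6 in ctrl, and 1, Ccl5, was lower in ctrl. Il1b, the secreted inflammatory cytokine, stood at 339 and 72.6 CPM in LD, and at 294 and 73.8 CPM in ctrl, ratios of 4.67 and 3.99. Ccl2, a monocyte attractant, was 3.93-fold and 4.54-fold higher. Cells with the most Ccl3, Ccl4 and Tnf had been left out, so these cytokine levels are those below that limit.

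The upstream sequences of 5 genes are shown because Fosb, Nfkbia, Dusp1 and Ppp1r15a are among the named genes highest in both libraries and because a script found a listed motif in the 250 bases before their start; Fos is shown as a gene of the rule. Of the 15 named higher genes 11 had a promoter in the table. Of these, 9 held a match to any listed motif in any of their promoters. The like share over all genes was not computed, so this count is no result about these genes. The 4 are a choice made after the matches were seen. The sequences are those of RefSeq on GRCm38.p6, given 5′ to 3′ along the gene's strand, with the motif in capitals: an NF-kB motif in Fos, Fosb and Nfkbia and an EGR motif (GCGNGGGCG) also in Fosb, and a cyclic AMP response element (CRE, TGACGTCA) in Dusp1 and Ppp1r15a. The intervals are chr12:85473640-85473889 on the plus strand for Fos, chr7:19310046-19310295 on the minus strand for Fosb, chr12:55492648-55492897 on the minus strand for Nfkbia, chr17:26508473-26508722 on the minus strand for Dusp1 and chr7:45526269-45526518 on the minus strand for Ppp1r15a.
Fos: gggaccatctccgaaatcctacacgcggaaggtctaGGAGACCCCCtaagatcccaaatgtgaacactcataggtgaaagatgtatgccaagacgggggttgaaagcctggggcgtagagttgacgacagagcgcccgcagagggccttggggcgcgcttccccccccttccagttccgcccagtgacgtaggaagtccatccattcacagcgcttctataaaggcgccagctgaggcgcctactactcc
Fosb: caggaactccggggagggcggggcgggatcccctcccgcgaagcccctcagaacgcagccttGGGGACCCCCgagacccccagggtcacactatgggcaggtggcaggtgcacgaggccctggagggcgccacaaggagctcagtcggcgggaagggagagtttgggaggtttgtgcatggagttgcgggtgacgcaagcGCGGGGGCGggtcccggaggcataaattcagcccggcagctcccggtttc
Nfkbia: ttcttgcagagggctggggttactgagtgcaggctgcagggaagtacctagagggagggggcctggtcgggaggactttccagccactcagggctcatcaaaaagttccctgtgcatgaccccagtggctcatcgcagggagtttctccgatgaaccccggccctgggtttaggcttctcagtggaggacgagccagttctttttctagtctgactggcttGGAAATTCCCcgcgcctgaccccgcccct
Dusp1: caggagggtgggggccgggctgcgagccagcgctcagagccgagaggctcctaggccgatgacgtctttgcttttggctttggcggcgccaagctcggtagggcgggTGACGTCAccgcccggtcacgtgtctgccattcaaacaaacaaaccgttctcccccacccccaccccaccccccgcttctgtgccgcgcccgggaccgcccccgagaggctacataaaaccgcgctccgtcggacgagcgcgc
Ppp1r15a: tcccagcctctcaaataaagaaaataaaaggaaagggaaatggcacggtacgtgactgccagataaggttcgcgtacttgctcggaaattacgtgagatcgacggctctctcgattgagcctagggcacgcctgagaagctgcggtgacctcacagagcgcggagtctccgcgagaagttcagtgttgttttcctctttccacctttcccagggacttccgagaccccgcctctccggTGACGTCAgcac
On both strands of all 32851 RefSeq promoter windows of 300 bases, 1.79% held the CRE, 7.81% the AP-1 motif TGANTCA, 5.55% the EGR motif and 4.51% the NF-kB motif. A promoter was listed for 78.4% of the 4530 genes, under the 80% needed, so a comparison of motif shares between gene sets is void and none is given. The shares of windows are each for a single motif, so they cannot be set beside the count of named genes with a match. A match is a string of letters in this window and no measured site.

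Outside these lists, the rule for named genes (the genes with the largest ratio that both libraries reach) also took Ccrl2, a chemerin-binding receptor of activated myeloid cells, Kdm6b, a histone demethylase, Hmox1, the haem-degrading oxygenase, Sertad1, a transcriptional cofactor, and Gm17056. Ccrl2 stood at 532 CPM in Fos-high and 50.2 CPM in Fos-low cells of LD, and at 744 and 104 CPM in ctrl, ratios of 10.6 and 7.14. Kdm6b was 8.15-fold higher in LD and 7.11-fold in ctrl, Hmox1 7.91-fold and 6.55-fold, and Sertad1 6.59-fold and 11.4-fold. The predicted gene Gm17056 was 9.83-fold and 6.84-fold higher; it is annotated antisense to Lsmem1, and the counting was not stated to use strand, so its source is uncertain.

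Heat-shock genes beside those of the rule were higher in 12 of 16 measured in LD, with a median log2 ratio of 1.15, and in 15 of 17 in ctrl, with a median of 1.46. Hspa8, the constitutive HSP70, stood at 4099 CPM in Fos-high and 1690 CPM in Fos-low cells of LD, and at 5349 and 1442 CPM in ctrl, ratios of 2.43 and 3.71. Hsp90aa1, the inducible HSP90, was 4.74-fold and 3.90-fold higher, and Bag3, a co-chaperone, 6.36-fold and 4.07-fold. Of the 4 measured genes of the ATF4 stress response, 2 were higher in LD and 3 in ctrl. Atf4 itself was 2.56-fold and 2.69-fold higher. The long nuclear RNA Neat1 stood at 123 and 40.1 CPM in LD, and at 162 and 58.6 CPM in ctrl, and Malat1 at 14509 and 9397 CPM in LD, and at 32250 and 23415 CPM in ctrl. Malat1 was thus 1.54-fold higher in LD and 1.38-fold higher in ctrl, on either side of the limit.

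The genes that define microglia and their states stood near the same level in both sets. Of 20 homeostatic microglial genes none was higher or lower in LD, with a median log2 ratio of -0.02, and in ctrl 1 was higher and 1 lower, with a median of -0.22. The lower one was Fcrls, an Fc receptor-like gene, at 44.0 CPM in Fos-high and 72.7 CPM in Fos-low cells of ctrl, against 296 and 297 CPM in LD. Csf1r, the receptor for the survival factor CSF1, had ratios of 0.972 in LD and 0.936 in ctrl. Of the disease-associated microglial genes, 0 of 21 in LD and 0 of 15 in ctrl passed the limit in either direction, and 12 of 12 lysosomal genes lay within it in each library. Over all measured genes only 6.09% were higher and 1.37% lower in LD, and 11.1% and 3.87% in ctrl. Most genes of any kind thus lay within the limit, so these counts do not set the lists apart. Of 12 genes of oxidative phosphorylation, 0 were lower in LD and 1 in ctrl, with medians of -0.24 and -0.37. Interferon-induced genes were higher for 1 of 16 in LD and 1 of 5 in ctrl, and lower for 0 of 16 in LD and 2 of 5 in ctrl.

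**Figure D4:**
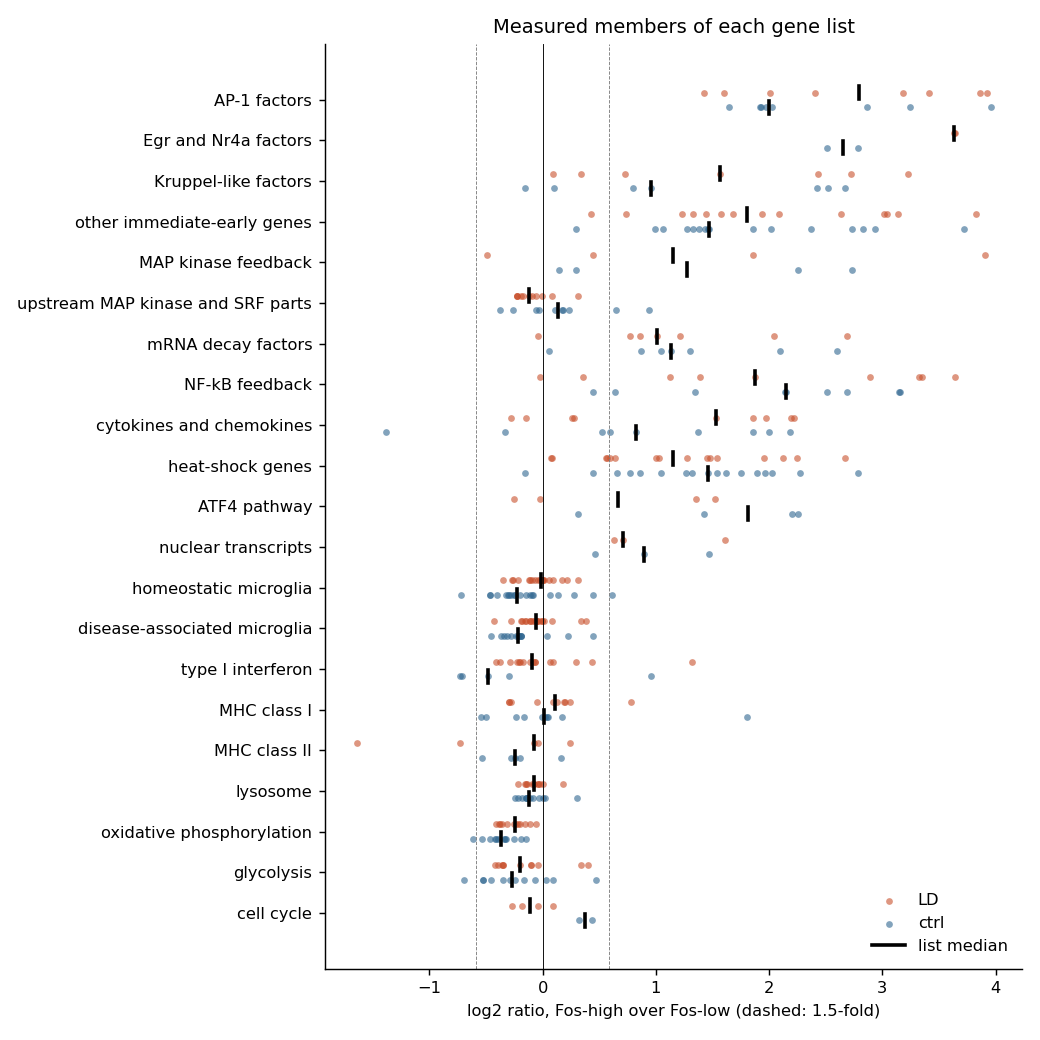
Log2 ratio of CPM, Fos-high over Fos-low, for the measured members of 21 gene lists, LD above ctrl within each list, with medians as black ticks and 1.5-fold as dashed lines. The immediate-early, NF-kB, mRNA decay and heat-shock lists lie to the right in both libraries, and the homeostatic, disease-associated and lysosomal lists lie around 0.

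Few genes were lower. Tmem100, a small membrane protein of BMP signalling, stood at 39.9 CPM in Fos-high and 67.8 CPM in Fos-low cells of LD, and at 55.0 and 92.0 CPM in ctrl, ratios of 0.587 and 0.597. Msrb1, a methionine sulfoxide reductase, had ratios of 0.636 in LD and 0.509 in ctrl, and Ndufc1, a subunit of respiratory complex I, had 0.659 and 0.598. With a score of Fos alone, log2 ratios were -0.35 in LD and -0.33 in ctrl for Tmem100 and -0.36 and -0.34 for Ndufc1. Both genes then lay within the limit, while Msrb1, at -0.59 and -0.67, lay past it. Where separate UMIs chose and measured the cells, Msrb1 had -0.31 in LD and -0.76 in ctrl. Without the heat-shock filter it had -0.49 and -0.81, so under both alternatives it lay within the limit in LD. Of 5 measured class II MHC genes 2 were lower in LD and 0 in ctrl, with median log2 ratios of -0.07 and -0.24. In LD Cd74, the invariant chain, stood at 82.6 and 137 CPM (ratio 0.603) and H2-Aa, an antigen-presenting chain, at 11.4 and 35.6 CPM (ratio 0.320). In ctrl Cd74 stood at 148 and 133 CPM and H2-Aa at 18.3 and 26.7 CPM. Most cells had some class II transcripts, with median sums of 5.80 per 10000 UMIs in Fos-high and 5.56 in Fos-low cells of LD. The medians in ctrl were 6.84 and 7.28. The highest sums were 25.3 among Fos-high and 757 among Fos-low cells of LD, and 65.8 and 620 in ctrl. Of the Cd74 UMIs in Fos-low cells of LD, the top 5 cells held 41.5%.

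Part of the listed genes rose with the score across its range and not only at the limit. The score was cut into 7 bins, the lowest 50%, then 4 of 10% and 2 of 5%. The last 2 leave out the heat-shock-high cells. Outside the rule, 110 listed genes had a mean of at least 20 CPM in both libraries. Of these, 32 in LD and 31 in ctrl were higher at each of the 6 steps, and 22 were so in both. The share over all genes was not computed, and the bins follow the score that chose the cells, so this is a description. Jun stood at 611, 1150, 1466, 2121, 3553, 4908 and 6312 CPM over the bins of LD, and at 2084, 3241, 4529, 5346, 6225, 6487 and 10650 CPM over those of ctrl. Nfkbia ran from 180 CPM in the lowest to 2451 CPM in the highest bin of LD and from 217 to 2289 CPM in ctrl, and Dusp1 from 47.9 to 936 CPM and from 109 to 970 CPM. Cx3cr1 ended at 870 CPM in LD and 868 CPM in ctrl, having started at 961 and 983 CPM. Across single gated cells, Spearman correlations of UMIs per 10000 between Fos and Egr1 were 0.52 in LD and 0.42 in ctrl, and between Fos and Cx3cr1 -0.06 and -0.08. These describe cells that share a library, a range of depths and the same denominator.

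**Figure D5:**
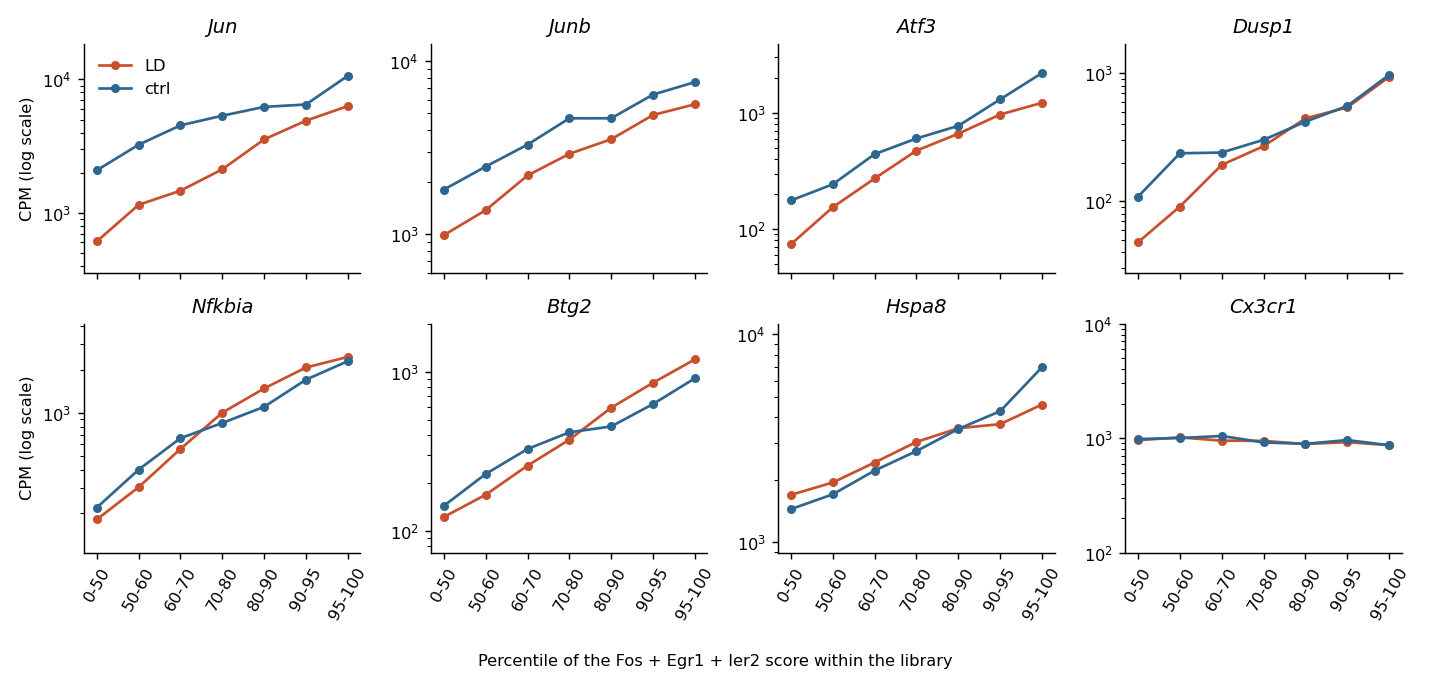
CPM (logarithmic axis) of 8 genes over 7 percentile bins of the Fos, Egr1 and Ier2 score, with a line for LD and a line for ctrl. Jun, Atf3, Nfkbia, Dusp1 and Hspa8 are higher at each step in both libraries, while Cx3cr1 ends at 870 CPM in LD and 868 CPM in ctrl, below its level in the lowest bin.

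Fos-high cells of LD and of ctrl were also set against each other. Of 4986 measured genes 373 were over 1.5-fold higher in LD (7.48%) and 571 were over 1.5-fold lower (11.5%). Fos, Egr1 and Ier2 had LD over ctrl ratios of 0.874, 0.954 and 1.04. Of 33 measured immediate-early genes, Fosb alone was higher in LD, at 1.83-fold (1.45 to 2.34), 13 were lower, and the median log2 ratio was -0.37. In Fos-low cells, 14 of 25 measured were lower in LD and none higher, with a median of -0.63 and 4.88% of all genes higher and 5.65% lower. Jun had an LD over ctrl ratio of 0.678 in Fos-high and 0.293 in Fos-low cells, Atf3 0.648 and 0.42, and Dusp1 0.992 and 0.44. In each set the early genes past the limit were thus nearly all lower in LD, and 19 of 33 in Fos-high and 11 of 25 in Fos-low cells lay within it; the medians are over different measured genes. Heat-shock genes, which moved with Fos within each library, were lower in LD for 5 of 16 measured members in Fos-high cells and higher for none; their part in these differences was not tested. Ier5 stood out in both sets. In Fos-high cells Ier5 stood at 329 CPM in LD and 1778 CPM in ctrl, 5.40-fold lower in LD. In Fos-low cells its LD over ctrl ratio was 0.120.

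The interferon-induced genes separated the libraries in Fos-high cells, with 12 of 12 measured members higher in LD and a median log2 ratio of 2.05. Of these, 8 passed the minimum only through LD and had to be higher. Irf7, the amplifier of the type I interferon response, is among these 8. It stood at 98.7 CPM in LD and 7.33 CPM in ctrl (8 UMIs in all), a ratio of 13.5. Ifitm3, an antiviral membrane protein, stood at 363 and 40.3 CPM, a ratio of 9.0. Ifi27l2a, another interferon target, stood at 1010 and 106 CPM, a ratio of 9.50 (7.88 to 11.6). Ccl5, a lymphocyte-attracting chemokine, stood at 170 and 11.9 CPM, a ratio of 14.3 (8.25 to 27.1), but the top 5 of 314 LD cells held 56.3% of its 359 UMIs, and ctrl had 13 UMIs in all. In Fos-low cells 12 of 12 were also higher in LD, of which 5 passed only through LD. Disease-associated microglial genes were higher in Fos-high cells of LD for 7 of 18 measured members and class I MHC genes for 5 of 10, none of either lower. In Fos-low cells the counts were 7 of 18 and 3 of 10, again none lower, so these differences were not particular to Fos-high cells. Of the measured disease-associated genes, 2 in Fos-high and 3 in Fos-low cells passed the minimum only through LD. Cxcl10, an interferon-induced chemokine, had another pattern. It stood at 254 CPM in Fos-high and 55.7 CPM in Fos-low cells of LD, a ratio of 4.56 (4.10 to 5.08), and at 98.1 and 55.3 CPM in ctrl, a ratio of 1.77 (1.42 to 2.20). Its LD over ctrl ratio was 2.59 in Fos-high and 1.01 in Fos-low cells. This difference of ratios between 2 libraries was not tested. In Fos-high cells the top 5 cells held 44.8% of 536 Cxcl10 UMIs in LD and 36.4% of 107 in ctrl. Without its top cell LD stood at 203 CPM.

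Some library differences rested on few cells, and others lay in transcripts known from rods. How rod transcripts came into these barcodes was not tested. Gdf15, a stress-induced cytokine, stood at 48.4 CPM in Fos-high cells of LD and 3.67 CPM in those of ctrl, a ratio of 13.2 (5.00 to 49.4), but its 102 UMIs in LD came from 24 of 314 cells and the top 5 cells held 57.8% of them. The noncoding A330069E16Rik stood at 1.90 CPM in LD and 42.2 CPM in ctrl, and 1 ctrl cell held 40 of the 46 UMIs; without it ctrl stood at 5.50 CPM. Pde6g, a rod phosphodiesterase subunit, stood at 6.64 CPM in LD and 65.1 CPM in ctrl; 6 of 6 measured rod markers were over 1.5-fold lower in LD. Exosc2, an exosome subunit, stood at 49.3 CPM in LD and 266 CPM in ctrl. Its top 5 cells held 67.3% of 104 UMIs in LD and 51.7% of 290 UMIs in ctrl. Leaving out the 10% of gated cells highest for rod transcripts, an alternative added after the data had been seen, moved no count of higher or lower genes between Fos-high and Fos-low cells by over 1.5 times.

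Since heat-shock and chemokine transcripts moved with Fos, Fos-low cells were also weighted to the same deciles of each, alternatives added after the data had been seen. With heat-shock matched, the median log2 ratio of the immediate-early genes was 1.47 in LD and 1.52 in ctrl, against 2.09 and 1.93 unmatched. Jun was then 5.34-fold higher in LD and 1.83-fold in ctrl, Atf3 7.27-fold and 6.58-fold, Nfkbia 7.52-fold and 6.81-fold, and Dusp1 6.47-fold and 3.61-fold. Maff, at 2.58-fold and 3.45-fold, and Kdm6b, at 2.49-fold and 3.51-fold, had much smaller ratios than unmatched. With the chemokine genes matched, the median was 1.68 in LD and 1.69 in ctrl. With heat-shock matched the medians were smaller and still over 1.5-fold. This matching is by deciles of the heat-shock genes of the rule, so levels within a decile and of other heat-shock genes may still differ. The cells were chosen for genes of the same wave, and the part of heat-shock in the ratios was not tested.

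The genes higher in both libraries were also described by their annotated form, with no test, since genes are not replicates. The median genomic span was 12.98 kb for the 232 genes over 1.5-fold higher in both and 8.13 kb for the 62 genes over 3-fold higher in both, against 19.3 kb for the 4530 genes. The AU-rich motif TATTTAT, a feature of short-lived mRNAs, was found in the annotated 3′ UTR of 41.8% of 225 genes over 1.5-fold higher, in that of 30 of 60 over 3-fold higher and in that of 26.7% of all 4419 with a UTR. The median UTR lengths were 1186 bases for the 225 genes and 1037 bases for the 4419, and the motif occurred 0.488 times per kb in the 225 genes and 0.269 times per kb in the 4419.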

How the data were processed

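Gene expression was measured in single sorted cells of 2 libraries, LD and ctrl, each a pool of mice. The authors deposited filtered matrices of UMI counts per gene and cell barcode, not normalized; Cell Ranger 2.0.0 and the mm10 genome are named in the submitters' processing notes. Barcodes were gated and ranked by the limits given with the results, and the heat-shock limit was set over all gated cells of a library. UMIs were summed per set and library and scaled to CPM, and no gene rows were left out of the totals. Genes averaging at least 20 CPM over the 2 sets compared were measured, and a ratio over 1.5-fold in either direction was called, without a test, since each group is 1 library. Intervals are exact 95% intervals of a ratio of 2 Poisson counts, or of a share of cells, and cover counting error only. Cells of 1 pool are not replicates. Total UMIs per library, and with them precision, were higher in LD than in ctrl.

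Named genes were the 15 higher and 10 lower genes with the largest change reached in both libraries, all measured AP-1, Egr and Nr4a factors, the 2 members with the largest ratio in each direction of each other list, 8 genes in each direction between the libraries, and 4 in each direction whose ratio differed most between libraries, without the genes of the rule; genes named beyond these are further members of the lists or of the markers. The cells and gene lists were chosen with earlier results of these data known. Alternatives changed the scaling, minimum level, percentages, filters, doublets (Scrublet scores), depth and score. Scripts ran in Python 3.11.15 with numpy 2.4.6, scipy 1.17.1, pandas 2.3.3 and scanpy 1.11.5, and were tested on simulated data. Spans and 3′ UTRs came from the reference annotation, promoters from RefSeq. Some genes that the rule names are not reported here.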

Additional observations from a re-analysis of the deposited data

Results flagged for a closer look

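For 2 genes the ratio of Fos-high to Fos-low cells lay over 1.5-fold on opposite sides in the libraries, and this difference was not tested. Lepr, the leptin receptor, stood at 115 CPM in Fos-high and 45.9 CPM in Fos-low cells of LD, a ratio of 2.51 (2.16 to 2.90), and at 18.3 and 30.5 CPM in ctrl, a ratio of 0.602 (0.361 to 0.949). Its 243 UMIs in the Fos-high cells of LD came from 19 cells, and the top 5 cells held 77.4% of them; of the 20 UMIs in those of ctrl, 1 cell held 55.0%. Cstf2t, a cleavage-stimulation factor of mRNA 3′ ends, stood at 24.7 and 16.1 CPM in LD, a ratio of 1.54 (1.12 to 2.07), and at 14.7 and 25.5 CPM in ctrl, a ratio of 0.574 (0.322 to 0.955), with 52 UMIs in the Fos-high cells of LD and 16 in those of ctrl.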

How the results depend on the processing

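No paired analysis was possible because the labels give 1 library per group. Under 21 alternatives, 16 planned and 5 added after the data had been seen, 147 values of the counts and list medians were obtained. No list median changed sign, and a count has no direction to change. Of the 147 values, 114 moved by less than the limits (1.5 times for a count, the counting interval for a median). The 33 below moved by more. The cause was not tested unless the alternative itself changes how many genes are measured.

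The genes higher in Fos-high cells (297 in LD, 548 in ctrl) numbered 154 in LD and 244 in ctrl at a minimum of 50 CPM, 741 in LD and 1337 in ctrl at 5 CPM, 925 in ctrl with the highest 5% of cells and 359 in ctrl with the highest 20%. The lower genes (67 in LD, 191 in ctrl) numbered 13 and 69 at 50 CPM, 360 and 588 at 5 CPM, 214 and 492 with the highest 5%, 12 and 33 with the highest 20%, 129 and 297 where separate UMIs chose and measured the cells, and 29 and 94 with a score of Fos alone. In LD they numbered 37 with ratios centred on the median of all genes, 44 against all other gated cells and 131 with heat-shock matched.

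The immediate-early median (2.09 in LD, 1.93 in ctrl) was 1.75 and 1.46 with a score of Fos alone, 1.76 and 1.58 with the highest 20%, 1.43 and 1.37 against all other gated cells, and 1.47 and 1.52 with heat-shock matched. In LD it was 2.40 at 50 CPM, 2.28 with the highest 5%, 1.92 with scores on 2700 UMIs per cell and 1.68 with chemokines matched. The LD over ctrl median in Fos-high cells, -0.37, lay between -0.44 and -0.27; alternatives that change only the Fos-low cells leave it as it is.

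Of 1176 values for 28 named genes in both libraries, none whose main ratio was past 1.5-fold changed direction, and 108 moved by over 1.5 times. Of these 108, 35 were against all other gated cells, 29 with heat-shock matched and 22 with a score of Fos alone. Alternatives that change only the minimum level, with 56 values each, leave a gene's ratio as it is, so those values could not move. Genes with few UMIs in the 314 and 241 Fos-high cells are limited by depth, most of all in ctrl.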

Other observations

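Hbegf, a growth factor of the EGF family, was picked after its values were seen, as the gene farthest from the other early genes in the plot of LD against ctrl ratios. It stood at 69.7 CPM in Fos-high and 53.4 CPM in Fos-low cells of LD, a ratio of 1.31 (1.09 to 1.56), and at 41.2 and 2.59 CPM in ctrl, a ratio of 15.9 (9.29 to 28.1). The LD over ctrl ratio was 1.69 (1.20 to 2.42) in Fos-high and 20.6 (13.4 to 33.4) in Fos-low cells. It was found in 105 of 314 Fos-high and 683 of 2178 Fos-low cells of LD, and in 24 of 241 and 18 of 1584 cells of ctrl, so no few cells carried the LD values. The ctrl ratio rested on less. Fos-high cells of ctrl had 45 UMIs, of which the top 5 cells held 46.7%, and Fos-low cells had 21. In ctrl the gene passed the minimum only through the Fos-high set. This contrast between libraries was not tested.

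Of the class I MHC list, 1 of 10 measured members was higher in Fos-high cells of each library. This was H2-Q7, a nonclassical class I gene, which had ratios of 1.72 in LD and 3.50 in ctrl, and its relative H2-Q4, which is not on the list, had 1.52 and 2.92. These genes have near-identical copies, so the split of their reads is uncertain.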
